A study of Mus musculus with 3 samples.

Results

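The cells described here are the Pdcd1-positive, non-cycling cells of the Cd8 class in a droplet library of T cells from mouse melanomas. They were chosen by the deposited annotation (Cd8 identity and Cd8 class) and by counts of unique molecular identifiers (UMIs, each standing for 1 captured transcript). A member had at least 1 UMI of Pdcd1, at least 1 UMI of Cd8a and Cd8b1 together, and fewer than 2 UMIs summed over the cycling genes Mki67, Top2a, Cdk1 and Birc5. Of 5564 cells in the table, 2681 were of the Cd8 class, 2313 of these had a co-receptor UMI, and 1918 of those were not cycling. The rule selected 893 of the 1918, and the other 1025, with 0 Pdcd1 UMIs, are called Pdcd1-undetected. A count of 0 at this depth does not show that a cell lacks the transcript.

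Pdcd1 encodes PD-1, an inhibitory receptor that T cells display after their antigen receptor is engaged and that dampens receptor and CD28 signals through recruited phosphatases. It is induced within hours of activation and stays high where antigen persists, as in tumors and chronic infection, where CD8 T cells can also gain Lag3, Havcr2 (TIM-3), Tigit and the transcription factor Tox. In such tissues, cells with Tcf7 act as a less differentiated reservoir, and cells with Havcr2 and without Tcf7 are described as more differentiated.

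The cells came from B16F10 tumors, a transplantable melanoma line, grown under the skin of 10 mice whose tumors were pooled. On day 1 of tumor growth hosts received an intravenous transfer of CD4 T cells (CD45.1, a congenic variant of a leukocyte surface protein) or CD8 T cells (CD45.2), and the otherwise untreated tumors were removed on day 11. Cells were sorted as 4 populations, namely CD4+ and double-positive cells with CD45.1 and CD8+ and double-positive cells with CD45.2, which were tagged separately and run as 1 pool, so all the groups below share the tumor line, the pool and the library, but need not share a host or a transfer. The annotation gives each cell a hashtag number from 1 to 4 that no label ties to a sorted population, and these numbers are parts of 1 pool, not replicates. With 1 library no test across samples exists: ranges in parentheses are exact 95% intervals for counting error only, and they do not measure the spread between animals.

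The members had a median of 3924 UMIs per cell, against 3734 in Pdcd1-undetected cells, and a median of 1585 genes, against 1507. A UMI of a Cd3 gene was present in 99.7% of members (99.0 to 99.9) and in 98.3% of Pdcd1-undetected cells (97.4 to 99.0). A Cd4 UMI was present in 2.02% and 1.85%, and the median mitochondrial share was 1.40% and 1.42%. Cells in which a second Trbv gene (a V gene of the receptor's beta chain) also reached 2 UMIs, as doublets can show, made up 14.8% of members (12.5 to 17.3) and 11.1% of Pdcd1-undetected cells (9.26 to 13.2). At least 2 UMIs of markers of other cell types were found in 55.5% of members (52.2 to 58.8) and 47.1% of Pdcd1-undetected cells (44.0 to 50.2). These 39 markers include Gzma and Eomes, which CD8 T cells can express themselves, so the shares are not a measure of foreign cells or doublets.

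Pdcd1 itself, the value that chose the members, was low in most of them: 392 members had 1 Pdcd1 UMI, 205 had 2 and 113 had 3, and the highest had 13. Just inside the threshold were therefore the 392 cells with 1 UMI, and just outside it the 1025 cells with none. At the cycling limit, 130 members had 1 UMI of the 4 cycling genes, and 35 Pdcd1-positive cells with 2 such UMIs lay just outside. As a share of non-cycling Cd8 class cells, members made up 46.6% (44.3 to 48.8). In the 1829 of these cells with at least 2000 UMIs, each thinned to 2000 UMIs, 32.6% (30.4 to 34.8) had a Pdcd1 UMI. Cells with fewer UMIs were left out of this and every other thinned share. In 87 myeloid-like cells without a Cd3 UMI, where Pdcd1 is not expected in quantity, 2 cells (2.30%, 0.280 to 8.06) had one at a median of 6924 UMIs.

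The members were spread over all hashtag numbers, with 95, 265, 330 and 203 cells in numbers 1 to 4. They made up 46.3%, 43.4%, 49.6% and 46.5% of the non-cycling Cd8 class cells of each number, and their intervals overlapped. At the thinned depth these shares were 30.8%, 32.0%, 33.4% and 32.9%. Among cycling Cd8 class cells 60.0% (54.98 to 64.9) had a Pdcd1 UMI, but at the thinned depth the share was 30.1% (25.6 to 34.9), with an interval that overlaps that of the non-cycling cells. Among non-cycling cells of the Cd4 class the thinned share was 12.1% (10.7 to 13.7).

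Against Pdcd1-undetected cells, members had more transcripts of other inhibitory receptors and of the transcription factors Tox, Nr4a1 and Nr4a2, and fewer transcripts of several naive T cell genes such as Satb1. A gene was measured where both groups together had at least 100 UMIs, and was counted as higher or lower where its CPM (UMIs per 1000000 UMIs of the group, receptor genes left out) differed by at least 1.5-fold, with no test. Of 6864 measured genes, 96 (1.40%) were higher in members and 105 (1.53%) were lower, and the median log2 ratio of all measured genes, with 5 CPM added, was 0.04. Of the 96 higher genes, 79 had the same direction in all 4 hashtag numbers, as did 54 of the 105 lower ones. Leaving out, for each gene, the cell with most of its UMIs in each group kept 90 of the 96 and 98 of the 105 past 1.5-fold.

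**Figure D1:**
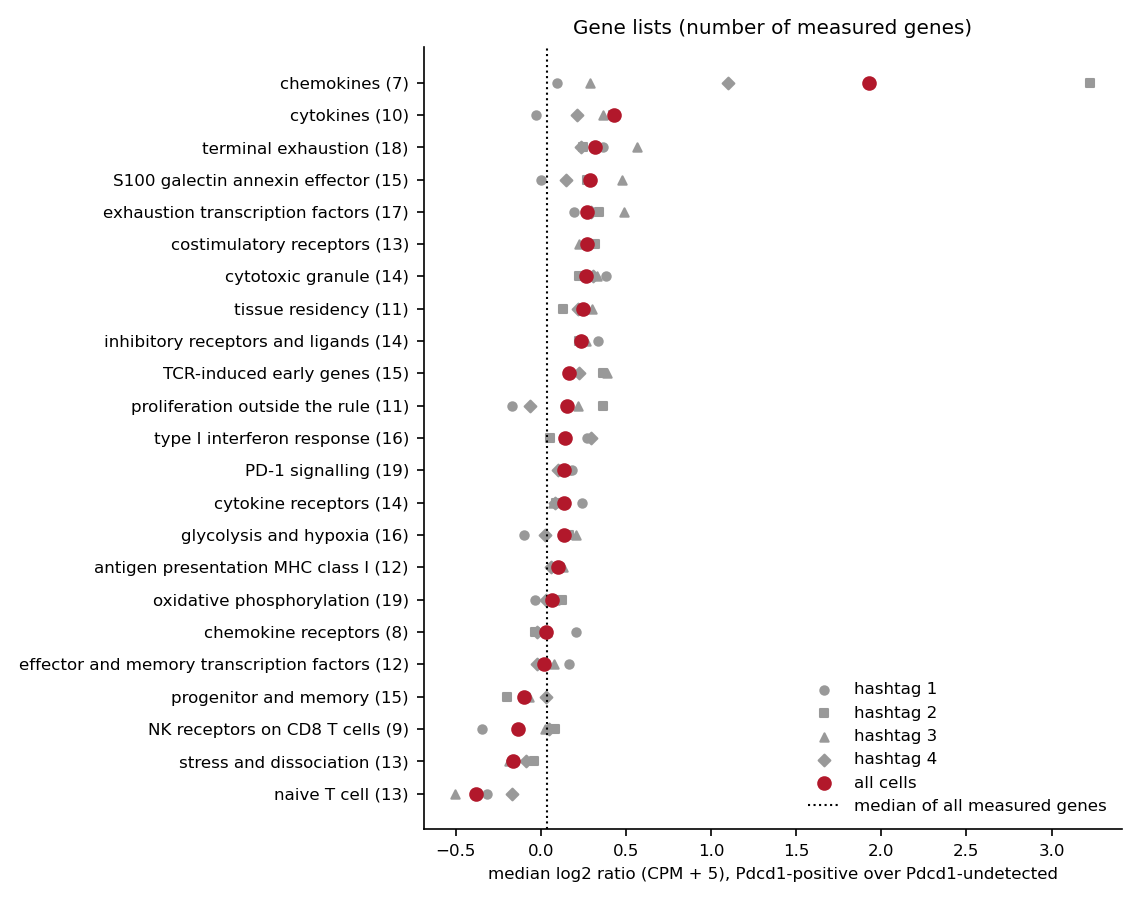
Median log2 ratio (CPM with 5 added) of each gene list in Pdcd1-positive over Pdcd1-undetected cells, for all cells (red) and within each hashtag number (grey), with the number of measured genes beside the list name and the median of all 6864 measured genes as a dotted line. Naive genes lie lowest at -0.38, and the chemokine median of 1.93 ranges from 0.10 to 3.23 over the hashtag numbers.

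Among inhibitory receptors and their ligands, 4 of 14 measured genes were higher (Tigit, Havcr2, Ctla4 and Lag3) and none of the 14 was lower. The list's median log2 ratio was 0.24, and 12 of the 14 ratios were above 0. Tigit, which competes with the costimulatory receptor CD226 for shared ligands, had 225, 210, 189 and 211 CPM in members of hashtag numbers 1 to 4, against 61.5, 120, 92.5 and 107 CPM in Pdcd1-undetected cells. The 2 sets did not overlap, and the level over all cells was 2.01-fold higher (1.78 to 2.26). Lag3, a receptor for MHC class II, had 111, 107, 94.97 and 115 CPM in members, against 37.3, 53.9, 68.5 and 80.2 CPM in Pdcd1-undetected cells. These sets did not overlap either, and the fold was 1.66 (1.42 to 1.94).

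Havcr2, the TIM-3 gene, had 20.2, 38.9, 25.2 and 35.0 CPM in members and 11.0, 19.7, 8.91 and 20.3 CPM in Pdcd1-undetected cells, a 2.02-fold higher level (1.48 to 2.77). Its lowest member value and highest undetected value were about equal, while each number on its own had the higher level in members. Ctla4, the CD28 family inhibitory receptor, was 1.66-fold higher (1.39 to 1.99), with 78.5 CPM in members and 47.3 CPM in Pdcd1-undetected cells. As shares of cells, a Tigit UMI was found in 49.2% of members and 27.9% of Pdcd1-undetected cells. For Lag3 these shares were 30.7% and 17.9%, for Ctla4 25.6% and 15.6%, and for Havcr2 9.63% and 5.07%. The myeloid-like cells, with a median of 6924 UMIs, had a Tigit UMI in 1.15%, a Lag3 UMI in 4.598% and a Ctla4 UMI in 2.30%.

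**Figure D2:**
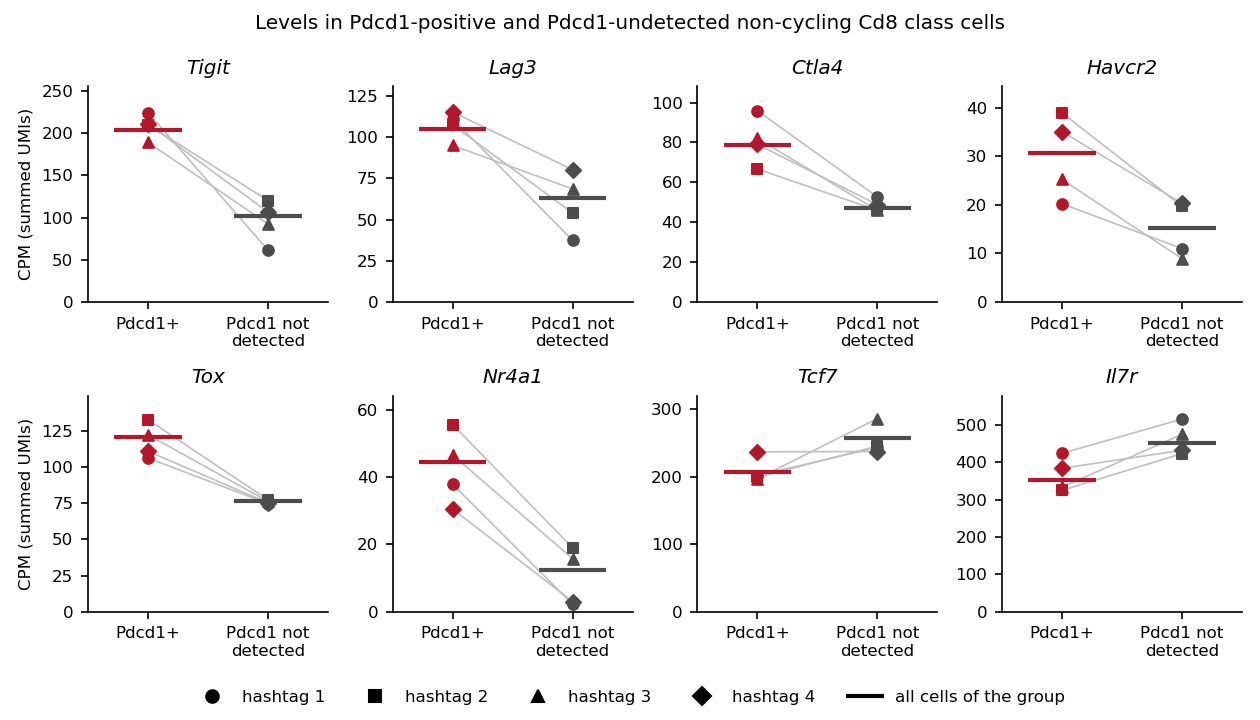
CPM from summed UMIs of 8 genes in Pdcd1-positive (left, red) and Pdcd1-undetected (right, grey) non-cycling Cd8 class cells, with a marker for each hashtag number, a line joining the same number and a bar for all cells of the group. Tigit, Lag3, Ctla4, Tox and Nr4a1 are higher in members of every number, with sets of 4 values that do not overlap, while Il7r is lower in every number with sets that meet near 424 CPM.

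Several of these receptors were also found together in more of the members than of all Pdcd1-undetected cells. With cells thinned to 2000 UMIs, 15.9% of members (13.5 to 18.5) had UMIs of exactly 2 of Lag3, Havcr2, Tigit, Ctla4 and Cd160, against 9.12% of Pdcd1-undetected cells (7.38 to 11.1). At least 3 of the 5 were found in 4.05% of members (2.84 to 5.59) and 1.76% of Pdcd1-undetected cells (1.03 to 2.81). In the Pdcd1-undetected cells that had a Gzmk UMI the shares were 14.6% (10.8 to 19.0) for exactly 2 and 3.56% (1.79 to 6.28) for at least 3, with intervals that overlap those of the members. None of the 5 was found in 39.4% of members (36.1 to 42.7) and 59.1% of Pdcd1-undetected cells (55.9 to 62.2). Thus many members carried no UMI of these 5 genes at this depth, and other inhibitory receptors were not counted. At the deposited depth none of the 5 was found in 20.4% of members (17.8 to 23.2) and 39.9% of Pdcd1-undetected cells (36.9 to 43.0).

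Of the transcription factors tied to exhaustion, 5 of 17 measured genes were higher (Nr4a1, Nr4a2, Nfil3, Tox and Ikzf2) and none of the 17 was lower, with a median log2 ratio of 0.27. Tox, a nuclear factor needed for the exhausted state in chronic infection and tumors, had 106, 132, 122 and 111 CPM in members of numbers 1 to 4, against 74.6, 77.3, 76.1 and 75.1 CPM in Pdcd1-undetected cells. The sets were well apart, with a 1.59-fold higher level (1.37 to 1.83), and 34.8% of members had a Tox UMI, against 22.3%. Nr4a1, an orphan nuclear receptor induced by antigen receptor signals, had 37.9, 55.6, 46.5 and 30.5 CPM in members, against 2.20, 19.0, 15.8 and 3.05 CPM in Pdcd1-undetected cells. The fold was 3.59 (2.62 to 4.98), although only 7.73% of members and 2.54% of Pdcd1-undetected cells had a UMI of it. The myeloid-like cells, which are deeper and can transcribe Nr4a1 themselves, had a UMI of it in 11.5%, so the share of members alone is not read as expression. Nr4a2, of the same family, was 2.82-fold higher (2.22 to 3.61), with a UMI in 15.8% of members, 7.805% of Pdcd1-undetected cells and 5.75% of the myeloid-like cells.

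Other genes that follow antigen receptor signals were higher too. Tnfaip3, the ubiquitin-editing inhibitor of NF-kB signals, had 127 CPM in members and 68.6 CPM in Pdcd1-undetected cells, a 1.86-fold higher level (1.60 to 2.15), with a UMI in 37.4% and 22.2% of cells and in 21.8% of the myeloid-like cells. Tnfrsf9, the costimulatory receptor 4-1BB, was 2.03-fold higher (1.68 to 2.47), and Crem, a cAMP-responsive transcription factor, 2.27-fold (1.73 to 3.00), with a Crem UMI in 14.8% of members, 7.32% of Pdcd1-undetected cells and 10.3% of the myeloid-like cells. Of the whole list of early genes 4 of 15 measured were higher (Nr4a1, Nr4a2, Tnfaip3 and Dusp5), none of the 15 was lower, and the median was 0.17. Thus most early genes did not reach 1.5-fold. Further genes named by the size rule were Plscr1 (2.02-fold, 1.58 to 2.60), an interferon-inducible scramblase, Zbtb32 (1.97-fold, 1.57 to 2.48), a transcriptional repressor in lymphocytes, Dgat1 (1.96-fold, 1.51 to 2.56), an enzyme of triglyceride synthesis, and Nrn1 (2.26-fold, 1.63 to 3.18), which encodes neuritin.

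Of the genes of the PD-1 pathway itself, from its ligands to Ptpn11, Lck and Zap70, none of the 19 measured was higher or lower by 1.5-fold. Over all measured genes these shares were 1.40% and 1.53%, so such a count in a short list says little. Of the 19 ratios 15 were above 0. Their median log2 ratio was 0.14, and 0.10 to 0.18 over the hashtag numbers, against 0.04 for all measured genes. In the lists of MHC class I presentation (12 genes, median 0.10, all 12 ratios above 0) and oxidative phosphorylation (19 genes, median 0.07, 15 ratios above 0), none of the genes was higher or lower either. Glycolysis and hypoxia had 1 lower gene of 16 (Bnip3), and the type I interferon response 1 lower gene of 16 (Oasl2).

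Most effector genes had ratios above 0, though few passed 1.5-fold. Of the cytotoxic granule list 2 of 14 measured genes were higher (Gzmb and Fasl), against 1.40% of all measured genes, and none of the 14 was lower. Of its ratios 13 were above 0, and the median was 0.26. Of the S100, galectin and annexin list 14 of 15 ratios were above 0 (median 0.29, but -0.0009 in hashtag number 1). Of the terminal exhaustion list 6 of 18 were higher (median 0.32), among them Ccl3, Ccl4 and Ifng, whose UMIs came from few cells. Gzmb, which encodes the protease granzyme B, had 409, 306, 375 and 339 CPM in members, against 136, 289, 229 and 165 CPM in Pdcd1-undetected cells. The sets did not overlap, but in hashtag number 2 the levels were close. The fold was 1.57 (1.44 to 1.71) over all cells, and 1.47 without hashtag number 1 or number 4. Gzmk, a granzyme of memory-like and pre-exhausted cells, was 1.497-fold higher (1.37 to 1.64), just under the limit. The NK receptor genes Klrc1 (NKG2A) and Klrk1 (NKG2D) were 1.61-fold (1.46 to 1.77) and 1.53-fold (1.40 to 1.68) higher.

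The largest ratios were those of chemokine and cytokine genes, and they came from few cells. Over all cells Ccl4 was 5.63-fold higher in members, Ccl3 6.27-fold, Ifng 4.47-fold and Xcl1 4.06-fold. However, 1 member held 641 of the 2000 Ccl4 UMIs, and single members held 225 of 562 Ccl3 UMIs, 365 of 790 Ifng UMIs and 407 of 862 Xcl1 UMIs. Ccl4, a chemokine that attracts leukocytes, had 116, 798, 571 and 235 CPM in members of numbers 1 to 4, against 59.3, 56.1, 149 and 68.0 CPM in Pdcd1-undetected cells. In every number the member level was higher, and the sets overlapped.

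Counted as cells, the ratios of these genes were smaller than those of their levels. A Ccl4 UMI was present in 20.9% of members (18.3 to 23.8) and 14.0% of Pdcd1-undetected cells (11.9 to 16.2), and in 19.5% of the myeloid-like cells, while members and Pdcd1-undetected cells had a Ccl3 UMI in 6.72% and 4.78%, an Ifng UMI in 16.9% and 12.98%, and an Xcl1 UMI in 8.06% and 7.90%. Cells with 10 or more UMIs over Ccl3, Ccl4, Xcl1, Ifng, Il2 and Tnf numbered 23 of 893 members (2.58%, 1.64 to 3.84) and 12 of 1025 Pdcd1-undetected cells (1.17%, 0.606 to 2.04). The 23 members held 85.95% of the members' Ccl4 UMIs, 78.9% of their Ifng UMIs and 57.5% of their Nr4a1 UMIs. Without such cells, in a setting chosen after the data were seen, the folds were 1.41 for Ccl4, 1.25 for Ccl3, 1.15 for Ifng and 0.841 for Xcl1, while Nr4a1 was at 1.75, Nr4a2 at 2.20 and Tigit at 2.02. The counting intervals do not cover this unevenness between cells.

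**Figure D3:**
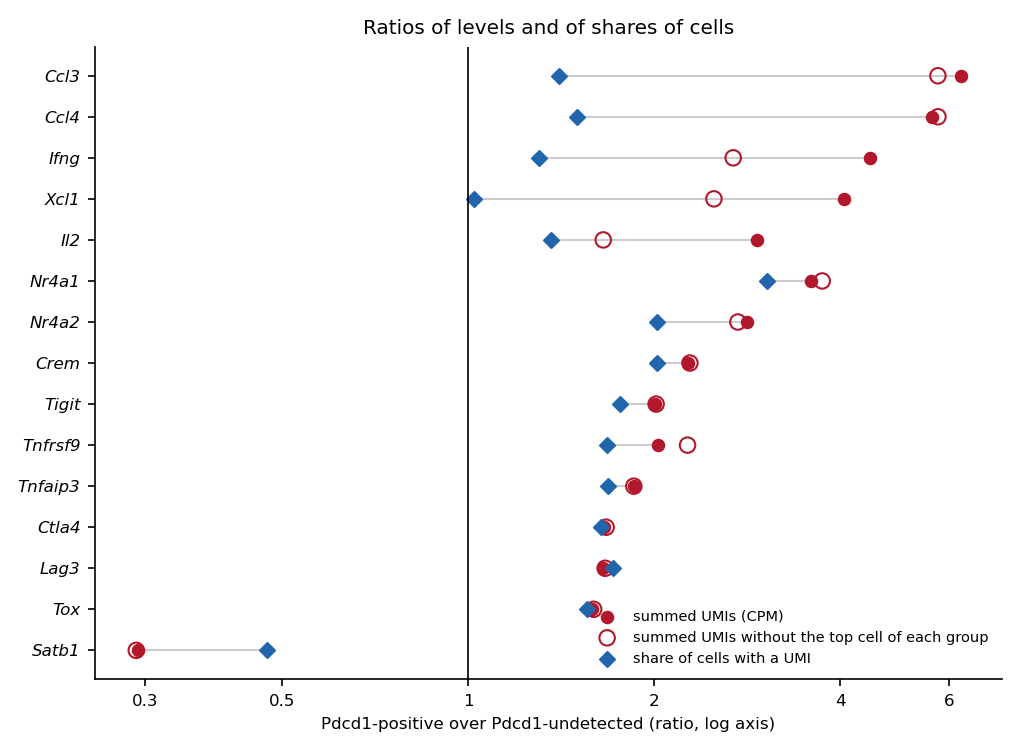
Ratio (log axis) of Pdcd1-positive over Pdcd1-undetected cells for 15 genes, as summed CPM (filled red), summed CPM without the cell with most UMIs of the gene in each group (open red) and share of cells with a UMI (blue). For Ccl3, Ccl4, Ifng and Xcl1 the level ratio lies far from the share ratio, whereas for Ctla4, Lag3 and Tox they nearly coincide.

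Genes of naive T cells were lower in members. Of the naive T cell list none of 13 measured genes was higher and 3 were lower (Igfbp4, Satb1 and Nsg2), all 13 log2 ratios were below 0, and the median was -0.38. Satb1, a chromatin organizer of T cells, had 20.2, 27.8, 34.2 and 44.1 CPM in members, against 54.9, 87.5, 171 and 93.4 CPM in Pdcd1-undetected cells. The sets did not overlap, with a 3.42-fold lower level in members (2.81 to 4.18), and a Satb1 UMI was present in 11.2% of members and 23.7% of Pdcd1-undetected cells. Treml2 was 3.85-fold lower (2.45 to 6.29), the receptor gene Il6ra 2.30-fold (1.61 to 3.32) and Pik3ip1, an inhibitor of PI3 kinase, 2.02-fold (1.52 to 2.69).

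The progenitor and memory list was less uniform, with 1 higher gene (Xcl1) and 1 lower gene (Satb1) of 15 measured and a median of -0.10. Tcf7, the TCF-1 gene, had 202, 199, 197 and 237 CPM in members, against 244, 246, 287 and 238 CPM in Pdcd1-undetected cells. It was 1.24-fold lower in members (1.13 to 1.36), with equal levels in hashtag number 4. Il7r, the interleukin 7 receptor, was 1.29-fold lower (1.20 to 1.38), and Slamf6, often used with Tcf7 to mark the reservoir, was 1.25-fold higher (1.12 to 1.39). Slamf6 and Ctla4, Ikzf2 and Dusp5 above are outside the naming rule and were chosen after their values were seen.

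Part of the contrast moved with cells that carry naive genes. When cells of both groups with a UMI of Ccr7 or Lef1, both naive T cell genes, were left out, a setting chosen after the data were seen, 613 members and 623 Pdcd1-undetected cells remained. The folds were then 1.74 for Tigit, 1.64 for Havcr2, 1.52 for Ctla4, 1.49 for Tox and 1.44 for Lag3, so that Tox and Lag3 no longer passed 1.5-fold. Crem (2.17), Nr4a2 (2.69) and Tnfaip3 (1.78) stayed past it, and Satb1 was 2.41-fold lower. Gzmb was at 1.33 and no longer past it, and the median log2 ratio of the naive list was -0.14. Ccr7 and Lef1 are in that list and have no UMI left after the filter, so part of the change in this median follows from the filter itself.

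Several genes of myeloid cells were lower in members over all cells. Tyrobp, an adaptor of myeloid and NK cell receptors, was 3.53-fold lower (3.03 to 4.13), Fcer1g 2.96-fold (2.53 to 3.47) and Ifitm3, an antiviral membrane protein, 3.26-fold (2.88 to 3.71), with a UMI of Tyrobp in 2.46% of members and 5.17% of Pdcd1-undetected cells. Of the 8 measured macrophage or monocyte markers 1 was higher (C1qc) and 3 were lower, and the 11 markers summed to 73.7 to 556 CPM in members and 167 to 1012 CPM in Pdcd1-undetected cells over the hashtag numbers. Of the 5 measured dendritic cell markers 4 were lower (H2-Ab1, H2-Aa, H2-Eb1 and Cd74), with sums of 398 to 2010 CPM in members and 731 to 6351 CPM in Pdcd1-undetected cells. The direction was not the same throughout: the median log2 ratio of the dendritic cell markers was 0.63 in hashtag number 3, the one with most members, against -2.38, -2.35 and -1.002 in numbers 1, 2 and 4. NK cell markers, with 2 of 4 lower, summed to 283 to 509 CPM and 294 to 1075 CPM. This list includes Gzma, at 174, 280 and 156 CPM in members of hashtag numbers 1 to 3, so its sum is not specific to NK cells. Melanoma markers summed to 1.85 to 10.2 CPM and 2.74 to 17.6 CPM, with Mlana at 0 in members.

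These transcripts came from few cells: 14 members (1.57%, 0.860 to 2.62) and 29 Pdcd1-undetected cells (2.83%, 1.90 to 4.04) had 10 or more UMIs of macrophage, monocyte or dendritic cell markers other than Cd74. Those 29 cells held 99.2% of the H2-Aa UMIs and 90.3% of the Ifitm3 UMIs of Pdcd1-undetected cells. Without such cells, a setting chosen after the data were seen, 58 genes were lower in place of 105, and 93 were higher in place of 96. Tigit was then 1.96-fold higher, Lag3 1.66-fold, Tox 1.55-fold and Nr4a1 3.89-fold, and Satb1 was 3.65-fold lower. B cell markers summed to 311 to 347 CPM in members and 189 to 287 CPM in Pdcd1-undetected cells, and the 1 measured marker was within 1.5-fold. Markers of plasmacytoid dendritic, helper or regulatory, endothelial and T cells had no higher or lower measured gene, and those of gamma delta, neutrophil, mast, fibroblast and erythroid cells had no measured gene.

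The members' levels were also graded by how many Pdcd1 UMIs a cell had. Cells with 1, 2 and 3 or more Pdcd1 UMIs had medians of 3780, 3782 and 4186 UMIs. Tigit was at 173 CPM (154 to 195), 190 CPM (163 to 221) and 249 CPM (223 to 276) in these 3 groups, against 101 CPM (92.0 to 111) in Pdcd1-undetected cells. Ctla4 was at 66.3, 84.0 and 89.6 CPM, with overlapping intervals, and Gzmb at 293, 342 and 427 CPM. Il7r had no order over the groups of members, at 351, 324 and 372 CPM, against 453 CPM in Pdcd1-undetected cells. Cells with 3 or more Pdcd1 UMIs stood apart in Tnfrsf9, with 125 CPM (107 to 146) against 54.1 and 49.3 CPM, and in Crem, with 62.7 CPM against 29.8 and 34.7 CPM. Lag3 (97.9, 99.7 and 116 CPM) and Tox (114, 122 and 128 CPM) had overlapping intervals in all 3 groups of members.

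**Figure D4:**
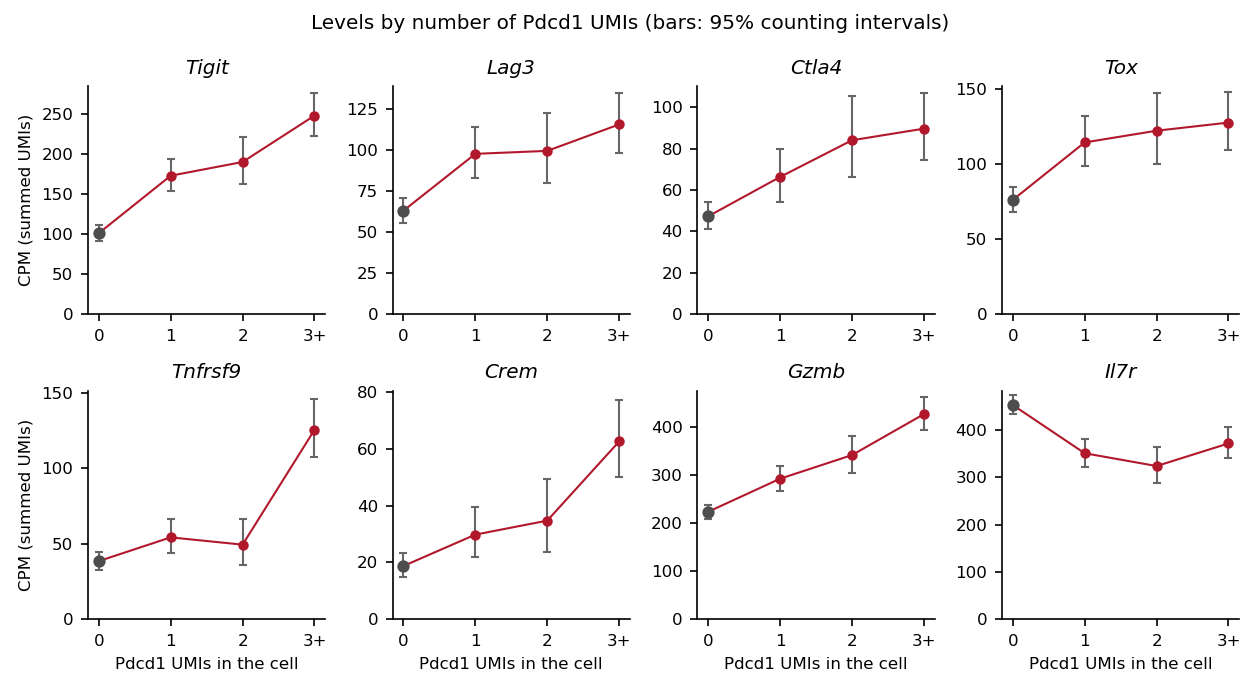
CPM of 8 genes by the number of Pdcd1 UMIs in the cell, from 0 (Pdcd1-undetected, grey) to 3 or more, with exact 95% Poisson intervals. Tigit and Gzmb increase over the groups, Ctla4, Lag3 and Tox have the same order with overlapping intervals among members, Il7r is highest at 0 UMIs, and Tnfrsf9 reaches 125 CPM only in cells with 3 or more Pdcd1 UMIs.

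The members differed among themselves in Havcr2 and Tcf7. Tcf7 without Havcr2 was found in 390 members, Havcr2 without Tcf7 in 46, both in 40 and neither in 417. Between the first 2 of these groups, which the split defines by those genes, Havcr2-positive members had more Gzmb and fewer naive, memory and interferon response transcripts. Their median depths were 4891 UMIs in the 46 Havcr2-positive members and 4028 UMIs in the 390 Tcf7-positive ones. Of 2855 measured genes 246 (8.62%) were higher in Havcr2-positive members and 334 (11.7%) were lower, with 42.4% of the called genes higher, but with TMM scaling, which moves the median of all genes by -0.10, 26.3% were. No hashtag number held 20 cells of both groups, so directions within numbers were not used.

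Gzmb was at 813 CPM in Havcr2-positive members and 125 CPM in Tcf7-positive members, a 6.51-fold higher level (5.36 to 7.91), with a UMI in 63.0% and 20.8% of cells. At the thinned depth these shares were 52.2% (36.9 to 67.1) and 15.2% (11.8 to 19.2). Of the terminal exhaustion list 7 of 10 measured genes were higher (Ccl3, Ccl4, Ifng, Tnfrsf9, Gzmb, Serpinb6b and Prf1), with a median of 1.71. Ccl3, Ccl4 and Ifng among them depend on single cells or on cells rich in cytokine transcripts, so this count and median are only a description. Of the cytotoxic granule list 7 of 13 were higher (Gzmb, Lamp1, Gzma, Fasl, Serpinb6b, Ctsd and Prf1), with a median of 0.56. Of the naive list 7 of 9 were lower (median -0.71), and of the progenitor and memory list 8 of 11 (median -0.71). In the CPM totals the Havcr2-positive members hold 253240 UMIs and the Tcf7-positive ones 1752331. Genes lower in Havcr2-positive members therefore reached the 100-UMI minimum mostly through the Tcf7-positive members, where they are high. Both counts are thus only a description. Il7r was 3.31-fold lower (2.38 to 4.73), Dapl1 7.15-fold (3.73 to 15.7) and Slamf6, chosen after its value was seen, 2.32-fold (1.55 to 3.63).

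Of the type I interferon response 8 of 13 measured genes were lower in Havcr2-positive members, all 13 ratios were below 0 and the median was -0.60. Isg15, a ubiquitin-like protein induced by interferon, was at 142 CPM, against 330 CPM in Tcf7-positive members, and was 2.32-fold lower (1.66 to 3.35). The other inhibitory receptors measured were, apart from Cd160, not higher in Havcr2-positive members by 1.5-fold. Lag3 was at 90.8 CPM in Havcr2-positive members and 107 CPM in Tcf7-positive members (0.851-fold, 0.526 to 1.32, and 0.564-fold without the cells rich in cytokine transcripts), Tigit at 122 and 202 CPM (0.606-fold, 0.406 to 0.876) and Tox at 71.1 and 110 CPM (0.649-fold, 0.376 to 1.05). Cd160, a receptor for HVEM, was 2.21-fold higher (1.59 to 3.03) in Havcr2-positive members, and 1.40-fold without the cells rich in cytokine transcripts.

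In so small a group single cells weighed heavily. Leaving out the cell with most UMIs of each gene in each group kept 112 of the 246 higher genes and all 334 lower genes past 1.5-fold. This step takes 1 cell of 46 and 1 of 390 with the CPM totals kept, so it tends to lower ratios of genes with few UMIs by itself. The 112 therefore do not measure how many genes depend on single cells. The ratios of Ccl3 (37.5), Ccl4 (21.9), Xcl1 (26.9) and Il2 (14.8) were 6.37, 7.05, 1.38 and 0.675 in that way. Lyz2, the macrophage lysozyme, was 115-fold higher (51.2 to 322) with a UMI in 6.52% of the 46 cells, and 89 of its 100 UMIs were in 1 cell. Macrophage or monocyte markers summed to 0 to 5658 CPM in Havcr2-positive members and 34.9 to 168 CPM in Tcf7-positive members over the hashtag numbers. Dendritic cell markers summed to 0 to 13136 CPM and 11.4 to 3331 CPM, ranges that overlap. Counts of measured markers are not given as support, since a marker such as Lyz2, with 100 and 6 UMIs, reached the minimum only through the group where it is high. Without cells rich in myeloid transcripts (43 and 386 cells left), Gzmb was 7.205-fold higher and Il7r 2.91-fold lower, while Lyz2 had no UMI in the Havcr2-positive members.

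A second comparison used the 324 Pdcd1-undetected cells with a Gzmk UMI, a subset of the 1025. The members were not filtered on Gzmk, so genes whose levels go with Gzmk can differ through this choice alone. The part of this choice in the results below was not tested. Against them the members had more transcripts of some naive T cell genes. Of 5634 measured genes 159 (2.82%) were higher in members and 78 (1.38%) were lower, with a median of 0.01. Among 13 measured inhibitory receptors and ligands none was higher and 2 were lower (Klrg1 and Entpd1), with a median of 0.11 and 8 of 13 ratios above 0. With 2.82% of all measured genes higher, the lack of a higher gene among 13 says little about this list. Lag3 was at 105 CPM in members and 92.1 CPM in the Gzmk-expressing cells (1.14-fold, 0.924 to 1.40), Tigit, chosen after its value was seen, at 204 and 178 CPM (1.14-fold, 0.986 to 1.33), and Tox at 121 and 136 CPM (0.889-fold, 0.746 to 1.06). Havcr2 was at 30.7 and 20.7 CPM (1.48-fold, 0.969 to 2.34). The intervals of these 4 ratios include 1, which does not show that the levels are equal.

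Genes higher in members than in the Gzmk-expressing cells included Tnfrsf4, the costimulatory receptor OX40, at 29.9 and 5.38 CPM (5.57-fold, 2.62 to 14.2), and Cd40lg, the CD40 ligand, at 27.9 and 6.91 CPM (4.04-fold, 2.05 to 9.06). Cd40lg was higher in every hashtag number, with 32.8, 30.6, 25.8 and 25.98 CPM in members, against 9.02, 8.02, 7.52 and 3.40 CPM. With 117 and 7 UMIs of Tnfrsf4 and 109 and 9 UMIs of Cd40lg, both genes reached the 100-UMI minimum only through the members, so they are given as values. Both are also markers of CD4 helper or regulatory T cells, the only 2 of 8 that were measured, and those markers summed to 87.9 to 120 CPM in members over the hashtag numbers, against 27.6 to 51.0 CPM in the Gzmk-expressing cells. Of 12 measured costimulatory receptors none was lower and Tnfrsf9 was higher, as was Tnfrsf4, which is measured here only through the members. The lymph node homing receptor Ccr7 was 3.82-fold higher (2.39 to 6.47), Il7r 1.64-fold (1.44 to 1.87), Nr4a1 2.64-fold (1.69 to 4.31, and 1.32-fold without cells rich in cytokine transcripts), Gch1 2.46-fold (1.78 to 3.48) and Nrp1, the neuropilin 1 gene, 2.60-fold (1.63 to 4.37). The nuclear lamina gene Lmna was 3.76-fold higher (2.03 to 7.72) and Fut7, a fucosyltransferase gene, 3.81-fold (1.93 to 8.58). Wide intervals mark few UMIs in the Gzmk-expressing cells, so these 2 genes are also given only as values, as are Ccr7, Nr4a1, Gch1 and Nrp1. In the CPM totals the members hold 3908811 UMIs and the Gzmk-expressing cells 1302403. Genes higher in members therefore reached the minimum mostly through the members. Of the naive list 5 of 11 measured genes were higher and none of the 11 was lower, and of the progenitor and memory list 4 of 14 were higher and none was lower. These counts are thus only a description.

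Lower in members were Plac8 at 283 and 537 CPM (1.90-fold, 1.72 to 2.09), the integrin gene Itga4 (1.55-fold, 1.42 to 1.70), the repressor gene Klf3 (1.75-fold, 1.47 to 2.09) and the chemokine receptor gene Cx3cr1 (1.78-fold, 1.22 to 2.57). Plac8 was lower in each hashtag number, at 328, 299, 317 and 183 CPM in members, against 614, 553, 502 and 527 CPM. Ccl5, the most abundant of these transcripts, was 1.56-fold lower (1.54 to 1.59), but in hashtag number 1 Ccl5 and Cx3cr1 were higher in members. Klrg1, a receptor of effector cells, was 1.78-fold lower (1.20 to 2.63). Of 6 measured macrophage or monocyte markers 5 were lower in members, whose sums were 73.7 to 556 CPM, against 63.2 to 843 CPM in the Gzmk-expressing cells. NK cell markers, with 3 of 4 measured lower (Tyrobp, Gzma and Fcer1g), summed to 283 to 509 CPM in members and 126 to 1146 CPM in the Gzmk-expressing cells. The part of the macrophage, NK and CD4 T cell markers in the comparison was not tested.

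Levels in other Pdcd1-positive cells are given as a description. Tigit was at 204 CPM (190 to 218) in members and 132 CPM (117 to 149) in the 237 cycling Cd8 class cells. It was at 222 CPM (186 to 263) in 121 non-cycling cells of Cd8 identity with the class label Tdp, read here as double-positive. In 409 non-cycling Cd4 class cells it was at 288 CPM (264 to 314). The Tdp and Cd4 class cells, unlike the members, were not filtered on a co-receptor UMI. Gzmb was at 351, 698, 199 and 830 CPM in the same order, and Tcf7 at 207, 78.0, 187 and 97.0 CPM. Members and the Tdp cells were thus close in Tigit and Tcf7, while the cycling cells had less of both. Ctla4 was near 60 to 79 CPM in the 3 groups of Cd8 identity and at 286 CPM in the Cd4 class.

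The beta V gene of the T cell receptor, which the choice of members did not use, was largely shared. A cell was assigned the Trbv gene with most UMIs and at least 2, which covered 815 members and 894 Pdcd1-undetected cells. Trbv12-1 was the most frequent, in 29.8% of members (26.7 to 33.1) and 28.2% of Pdcd1-undetected cells (25.3 to 31.3), and in hashtag number 4 it reached 42.6% and 45.3%. In hashtag number 3 it was found in 76 of 304 members (20.2 to 30.3%) and in 52 of 295 Pdcd1-undetected cells (17.6%, 13.5 to 22.5), so its order differed between numbers. Trbv29 was found in 11.8% and 11.2% and Trbv19 in 9.57% and 10.6%. Over all cells Trbv13-1 differed more, with 15.2% of members (12.8 to 17.9) and 9.51% of Pdcd1-undetected cells (7.67 to 11.6). In hashtag numbers 1 to 4 it was found in 15.6%, 13.9%, 18.4% and 11.5% of members, against 9.89%, 8.47%, 11.5% and 7.96% of Pdcd1-undetected cells. The direction was the same in each number, although the intervals within numbers overlapped. Cells of 1 clone share a Trbv gene, but the intervals treat cells as independent. Clones were not told apart here, and numbers of 1 pool can share them. Trbv15 was found in 6 members (0.736%, 0.271 to 1.60) and 22 Pdcd1-undetected cells (2.46%, 1.55 to 3.70). Among the Trbv genes, Trbv13-1 and Trbv15 were chosen after their values were seen, and near-identical Trbv genes can share reads.

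**Figure D5:**
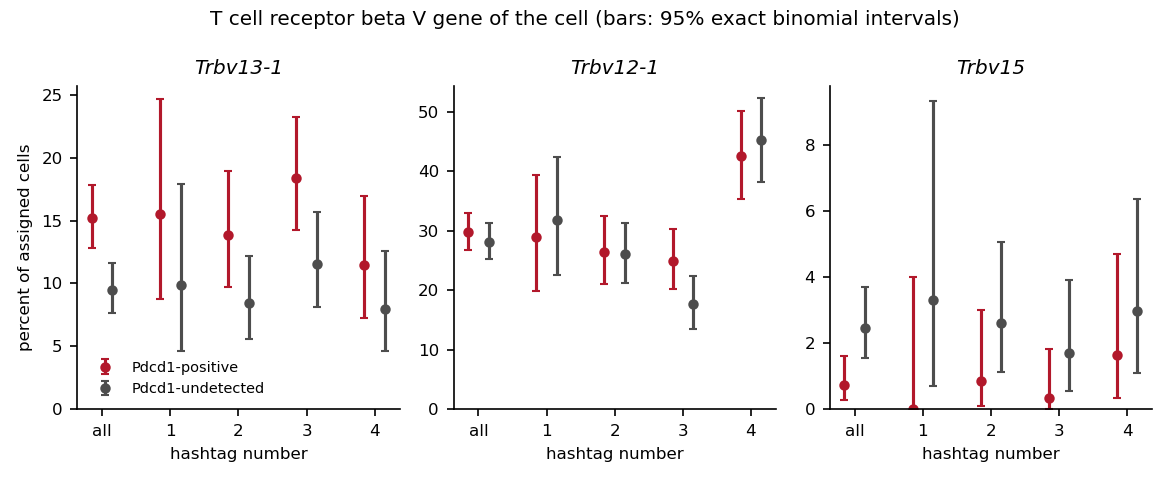
Percent of cells assigned to 3 Trbv genes among Pdcd1-positive (red, left of each pair) and Pdcd1-undetected (grey) cells, over all cells and by hashtag number, with exact 95% binomial intervals. Trbv13-1 is higher in members of each number, Trbv12-1 is close over all cells, higher in members of number 3 (76 of 304, against 52 of 295 cells) and highest in number 4, and Trbv15 rests on 6 and 22 cells.

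Surface proteins were read with 138 barcoded antibodies, but the deposited table holds only 4315 counts over all cells, 519 in members and 636 in Pdcd1-undetected cells. PD-1 itself had 7 counts in members and 6 in Pdcd1-undetected cells, a ratio per cell of 1.34 (0.385 to 4.82), so a difference in surface PD-1 was not detectable at this depth. Other inhibitory receptors had few counts too, with 7 and 5 counts for TIGIT, 4 and 5 for LAG-3, 1 and 2 for Tim-3 and 4 and 3 for CD152 (CTLA-4), and intervals of the ratio that include 1. ICOS, an activation-induced costimulatory receptor, had 18 counts in members and 7 in Pdcd1-undetected cells, a ratio of 2.95 (1.18 to 8.36), of which 11 member counts were in hashtag number 3. CD39 had 10 and 2 counts, a ratio of 5.74 (1.22 to 53.9), while a UMI of its gene Entpd1 was found in 6.72% of members and 6.15% of Pdcd1-undetected cells. CD3 had 2 and 12 counts, a ratio of 0.191 (0.0208 to 0.859), although nearly all cells of both groups had a Cd3 UMI. CD8a had 25 and 37 counts and CD44 22 and 21 counts, with intervals of the ratio that include 1. The named antibodies other than PD-1 and CD8a were chosen after their counts were seen, among 138.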

How the data were processed

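Gene expression was measured in 1 droplet library (10x, 5 prime chemistry, per the labels' protocols), and the hashtag and T cell receptor libraries were not analysed here. The authors deposited raw counts of UMIs for 14811 genes and 5564 cells, a table of antibody counts, and an annotation of each cell (hashtag number, identity as Cd4 or Cd8, class). The submitters' processing notes name mm10, Seurat 3.2.3 and Cell Ranger 3.1.0 without saying what each was used for. Cell filtering, doublet removal and class calling are not given in the sources used here, and no doublet caller was run.

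UMIs were summed over the cells of a group and scaled to CPM without 117 T cell receptor and immunoglobulin genes. These genes hold 0.325% of UMIs. Folds used no pseudocount, and log2 ratios used 5 CPM. The groups hold 3924337 UMIs (Pdcd1-positive) and 4285609 UMIs (Pdcd1-undetected), so 3 UMIs, the limit a count of 0 allows, are 0.767 and 0.702 CPM. Intervals (scipy 1.17.1) are Poisson for levels, conditional binomial for ratios and Clopper-Pearson for shares, at 95%. The ratio step was tested on simulated data.

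Per comparison, the text could name the 15 largest ratios in each direction with at least 20 CPM and a UMI in 5% of the higher group's cells and 1 direction in all hashtag numbers with 20 cells in both groups, plus Pdcd1, Lag3, Havcr2, Tox, Tcf7 and Gzmk and the 3 highest and lowest genes of each of 23 lists. The text names a part of them, and some genes, with the values of 1 antibody, are not reported here and were left out of the lists. Genes of receptors, mitochondria or ribosomes, and gene models with no name, could not be named. The members and lists were chosen with earlier results of these data known. Naive-like Pdcd1-undetected cells numbered 7 and were not compared. Alternatives included TMM (edgeR 4.0.16) and median-of-ratios scaling, other UMI minimums, per-cell means, weighting by hashtag number or depth, thinning, and leaving out cells or hashtag numbers.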

Additional observations from a re-analysis of the deposited data

How the results depend on the processing

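Counts of genes past 1.5-fold depend most on the UMI minimum and on which cells enter, and the cause was not tested unless the setting itself removes the genes' cells. In the members against Pdcd1-undetected cells, 96 higher and 105 lower genes became 217 and 269 at a minimum of 50 UMIs and 31 and 25 at a minimum of 300. The lower genes numbered 52 with thinned cells, 38 without cells with UMIs of other cell types and 58 without cells rich in myeloid transcripts, and without cells with a Ccr7 or Lef1 UMI the counts were 81 and 80, of which 40 and 41 were among the 96 and 105. Between Havcr2-positive and Tcf7-positive members, 246 higher and 334 lower genes became 553 and 737 at 50 UMIs, 42 and 69 at 300 UMIs, 80 and 128 with thinned cells, 81 and 142 without cells with UMIs of other cell types, 132 and 220 without hashtag number 3, and 112 and 527 without the top cells of each gene, and TMM scaling gave 157 higher. Against Gzmk-expressing cells, 159 higher and 78 lower genes became 398 and 194 at 50 UMIs, 24 and 11 at 300 UMIs, 89 and 32 with thinned cells, and 101 and 44 without cells with UMIs of other cell types, while the higher genes were 245 as a mean of hashtag numbers and 97 without hashtag number 3, and the lower genes 119 by mean per-cell CPM. Directions of single genes turned as follows, as log2 ratios. Against Pdcd1-undetected cells, Fcer1g was at 0.0706 without cells with UMIs of other cell types and Xcl1 at -0.21 without cells rich in cytokine transcripts. Between Havcr2-positive and Tcf7-positive members, Tox was at 0.19 and Lyz2 at -0.36 without cells with UMIs of other cell types, Xcl1 at -0.84 and Il2 at -0.23 without hashtag number 2, H2-Ab1 at -3.70 without hashtag number 3, and Il2 at -0.45 without the top cells. Without cells rich in cytokine transcripts, Ifng was there at -0.35, Xcl1 at -0.90 and Il2 at -1.035, and without cells rich in myeloid transcripts Lyz2 was at -0.77 and H2-Ab1 at -0.10. Against Gzmk-expressing cells, Klrg1 was at 0.51 and Gzma at 1.36 without cells with UMIs of other cell types, and Ifng at -0.32 without cells rich in cytokine transcripts. The filters on other cell types, myeloid and cytokine transcripts use some of these same genes, so part of these turns follows from the filters. The filter on other cell types also removes cells through Gzma and Eomes UMIs, and it left 397 members and 542 Pdcd1-undetected cells. Of the gene and setting pairs in the members against Pdcd1-undetected cells, 775 stayed on their side of 1.5-fold. Of the others, 31 no longer passed it, 6 newly passed it and 2 that had passed it turned. Other UMI minimums and pseudocounts cannot change a gene's fold, so their pairs are among the 775 by design. A gene under 1.5-fold that changed direction and stayed under it is also counted there. The settings without top cells, without cells rich in cytokine or myeloid transcripts and without cells with a Ccr7 or Lef1 UMI were chosen after seeing the data, the last in place of a planned filter that uses a gene not reported here. The mean of hashtag numbers gave no value between Havcr2-positive and Tcf7-positive members. Between these groups, unlike in size, leaving out the top cells with the CPM totals kept tends to lower ratios by itself. No paired analysis was possible because all cells come from 1 library. With 1 pool of 10 mice, the spread between animals is unknown.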
